A study of Mus musculus with 8 samples.

Results

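The odorant, pheromone and taste receptors of the mouse were examined in the left hippocampus of wild-type and Cav3.2 knockout mice. Members were chosen by name: every probe whose gene symbol began with Olfr and a number (olfactory receptors), V1r, V2r or Vmn (vomeronasal receptors), Tas1r or Tas2r (taste receptors) or Taar (trace amine-associated receptors) and that had a value on all 8 arrays. This gave 196 probes of 194 genes, among 16588 probes with values, of which 13183 name 11147 genes. They were 176 olfactory, 14 vomeronasal, 5 bitter taste (T2R) and 1 trace amine-associated receptor probes. The arrays hold 4 groups of 2: wild-type naive (WNL), wild-type trained (WTL), knockout naive (KNL) and knockout trained (KTL). All mice were males aged 6 to 8 weeks, of the strain C57BL/6 in the labels, and the methods name the wild type as C57BL/6J. Knockout mice were homozygous for Cacna1h tm1Kcam, a constitutive deletion in the gene of the pore-forming subunit of the Cav3.2 T-type calcium channel, and came from heterozygotes bred to C57BL/6 over several generations. Trained mice had undergone trace fear conditioning, in which a tone and a foot shock are separated by a gap, and were sacrificed right after a contextual memory test on the next day, whereas naive mice were not conditioned. Each RNA sample was pooled from the left hippocampi of 3 mice. It is not stated whether replicate arrays came from different pools, so the p-values measure the spread between arrays, which may be technical.

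Chemoreceptors are G protein-coupled receptors that bind odorants, pheromones, bitter compounds or amines. An olfactory sensory neuron transcribes a single olfactory receptor gene from 1 allele, and its receptor signals through the G protein subunit Gnal, adenylyl cyclase 3 and a cyclic nucleotide-gated channel, while vomeronasal neurons use Trpc2 and taste cells use Gnat3, Plcb2 and Trpm5. Outside the nose and tongue, single members have been described in sperm, kidney, gut and brain, where transcript levels are low. Mouse olfactory receptors fall into class I, the family also found in fish, and class II, which is specific to land vertebrates.

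The start regions of 3 members among the 12 with the largest called rises in the naive knockout are shown here, since members moved together and transcription factor motifs before olfactory receptor genes are well described. Each is 300 bases from RefSeq, 250 before and 50 after the annotated start in build GRCm38.p6, written 5′ to 3′ on the strand of the gene. Capitals mark TAATGA or TAATTA on either strand (homeodomain-like motifs, 6 letters) and, where the annotated start falls on it, the ATG. V1rc20, the name on the array, is Vmn1r6 in RefSeq.
Olfr1009, chr2:85721157-85721456, plus strand: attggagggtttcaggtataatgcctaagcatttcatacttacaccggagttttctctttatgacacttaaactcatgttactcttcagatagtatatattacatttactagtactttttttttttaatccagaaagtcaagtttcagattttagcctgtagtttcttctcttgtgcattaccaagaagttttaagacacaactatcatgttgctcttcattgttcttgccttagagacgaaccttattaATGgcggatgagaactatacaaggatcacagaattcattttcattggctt
Olfr736, chr14:50392508-50392807, plus strand: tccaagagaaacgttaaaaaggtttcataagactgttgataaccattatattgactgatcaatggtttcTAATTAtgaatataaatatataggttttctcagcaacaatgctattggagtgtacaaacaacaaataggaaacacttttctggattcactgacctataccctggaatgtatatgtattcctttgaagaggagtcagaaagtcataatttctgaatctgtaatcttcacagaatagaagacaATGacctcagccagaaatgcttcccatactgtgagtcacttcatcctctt
Vmn1r6, chr6:57002105-57002404, plus strand: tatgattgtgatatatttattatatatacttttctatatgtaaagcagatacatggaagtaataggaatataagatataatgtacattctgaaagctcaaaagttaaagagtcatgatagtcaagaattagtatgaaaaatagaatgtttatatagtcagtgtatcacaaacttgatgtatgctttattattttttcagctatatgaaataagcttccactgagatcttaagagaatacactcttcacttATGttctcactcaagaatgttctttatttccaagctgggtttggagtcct

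Of these 3 windows, only that of Olfr736 held either motif. Windows were available for 151 of the 194 member genes, and 39.1% of them held TAATGA or TAATTA, against 40.8% of all 944 olfactory receptor windows and 14.1% of the 27025 windows of all genes. The windows of members were also richer in A and T (median 64.3%) than those of all genes (47.3%), and A and T make up most of both motifs. The share was 35.3% (12 of 34) among members that rose in the naive knockout and 40.2% (47 of 117) among the other members. The Olf1/EBF motif (TCCC, any 2 letters, then GGGA) was found in 1 member window, 0.662%, against 0.914% of all windows. In 68.9% of the member windows the annotated start was itself an ATG, against 6.75% of all windows, so that many of these windows precede the coding sequence and not a mapped start of transcription. These matches describe letters in a window and are no evidence of binding.

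Among all probes the KNL arrays stood apart. They correlated with each other at an r of 0.985 on the log2 scale over the 16588 probes, but with the arrays of other groups at 0.852 to 0.938, whereas arrays of the 3 other groups correlated at 0.968 to 0.993. Cacna1h, the gene targeted in the knockout, read 2732 and 2985 in WNL, 2836 and 1838 in WTL, 1929 and 1377 in KNL and 1171 and 1395 in KTL, and its change in KNL vs WNL was -0.81 (SE 0.25, adjusted p = 0.0303) and did not pass. Whether its probe lies in the deleted part is not known here, so it does not check the labels. Genes of the hippocampus were present on every array, such as Camk2a, a kinase of excitatory synapses, at 9229 and 8865 in WNL, against 9841 and 9581 in KNL. Of 5 measured genes of excitatory hippocampal neurons, 2 fell in KNL vs WNL, Neurod6 by 3.19 and Prox1 by 1.81 on the log2 scale, and both were called higher again in KTL vs KNL. Of 5 measured interneuron genes Slc32a1 fell by 2.31 and Npy rose by 1.33, and of 4 astrocyte genes Gfap fell by 1.23. None of the 4 oligodendrocyte and 5 microglia genes measured was called. Over all probes 6.93% were called higher and 13.5% lower. The 5 choroid plexus markers, all measured, did not move as one. Ttr, the leading transcript of that tissue, read 49816 and 49065 in WNL, 38255 and 35240.3 in WTL, 13737 and 10093 in KNL and 17442 and 18438 in KTL and fell in KNL vs WNL by 2.07, whereas Clic6, Folr1, Kcne2 and Kl changed there by -0.38 to -0.30 and did not pass. In KTL vs KNL the change of Ttr was 0.61 and did not pass, while Clic6, Folr1 and Kcne2 fell by 1.06, 1.46 and 1.47, and Kl, at -0.64, changed by less than 2-fold. Their part in the changes of the receptors was not tested. In RNA of a whole tissue, fewer cells of a type and less RNA per cell cannot be told apart.

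Most chemoreceptor probes had no value at all. The array carries 835 probes that match the rule, and 196 of them, 23.47%, had values, against 62.72% of the 21020 probes with a gene symbol. The share was 25.04% of 703 olfactory, 13.19% of 91 V1R, 22.22% of 9 V2R and 17.86% of 28 T2R probes, whereas the 3 T1R probes, for sweet and umami taste, were all blank and the Taar1 probe had values. The 639 blank probes were blank on every array, and what removed them is not stated. A probe may have kept its values through the KNL arrays alone, and such a probe had to differ, so the counts below describe the probes with values and were not taken as support of a difference over all receptor probes of the array. No probe sequences were used here, and whether a probe also reads a related receptor was not examined.

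The members were dim, and they were brightest on the KNL arrays. Their median normalized intensity (linear scale, with a floor of 100) was 186 and 190.3 on the WNL arrays, 192 and 233 on the WTL arrays, 281 and 391 on the KNL arrays and 182 and 173 on the KTL arrays. Both KNL medians lay above those of the 6 other arrays, but the 2 arrays of a group were not alike, since KNL replicate 2 lay well above KNL replicate 1 and WTL replicate 2 above WTL replicate 1. Over the same arrays the median of all other probes stayed between 484 and 491. Quantile normalization gives every array nearly the same distribution of values. This level median, and the even share of all probes at the floor given below, were therefore set by the normalization. The median member stood at percentile 22.7 and 23.5 of the probes in WNL, 35.1 and 44.3 in KNL, and 22.1 and 20.6 in KTL. The number of members at the floor was 32 and 37 on the WNL arrays, 34 and 10 on the WTL arrays, 1 and 0 on the KNL arrays, and 43 and 44 on the KTL arrays, while 6.64% to 6.86% of all probes lay there on every array. KNL replicate 2 was the array with the highest value for 169 members (86.2%), and KNL replicate 1 for 14 (7.14%). For the other probes these shares were 32.6% and 15.8%.

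**Figure D1:**
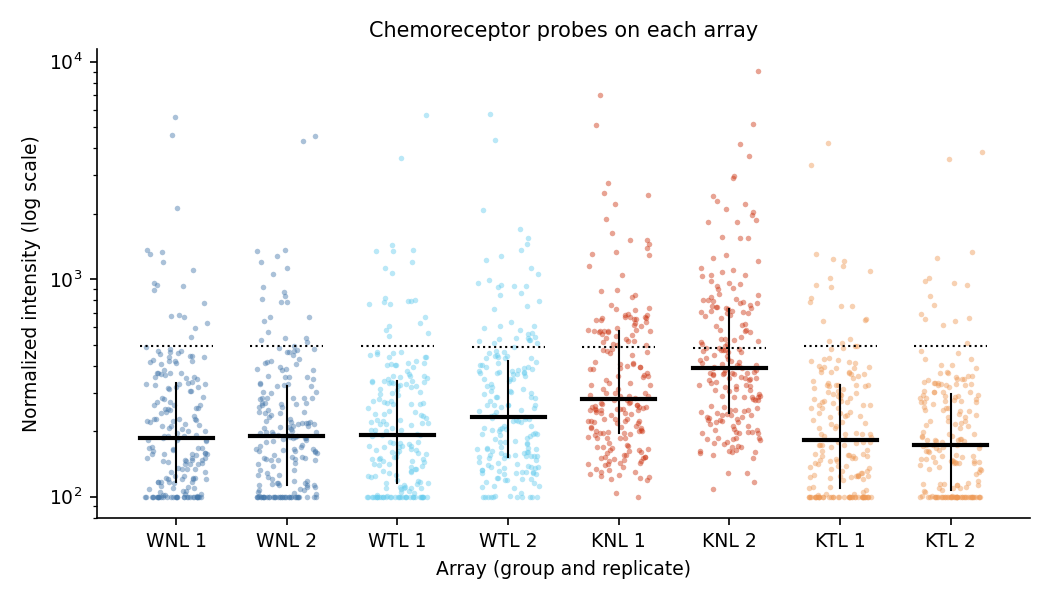
Normalized intensity (log scale) of the 196 chemoreceptor probes on each of the 8 arrays, 1 point per probe, with the members' median (thick line), their quartiles (vertical line) and the median of all other probes (dotted line). The members' medians were 281 and 391 on the KNL arrays and 173 to 233 on the others. The dotted line is level because of the quantile normalization.

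The comparison of KNL with WNL addresses the effect of the knockout in mice that were not trained. Of the 196 members, 42 rose and 1 fell by limma's moderated test (two-sided). Benjamini-Hochberg adjustment ran over the 16588 probes, and a probe was called where its change exceeded 2-fold and its adjusted p was below 0.01. This is 21.4% of the members called higher against 6.93% of all probes, and 0.51% called lower against 13.5% of all probes. The median change of the members was 0.88 on the log2 scale, with quartiles of 0.63 and 1.13, against a median of 0.16 over all probes. The change was above 0 for 190 of 196 members and for 57.1% of all probes. Both KNL arrays lay above all 6 other arrays for 133 members (67.9%), against 37.5% of all probes, and below all of them for 3 (1.53%), against 26.9%. Of the 66 members that were more than 2-fold higher, 24 missed the p threshold. Olfr1410 (change 1.27, adjusted p = 0.00969) lay just inside the threshold and Olfr750 (change 1.07, adjusted p = 0.0109) just outside.

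These calls depended on the second KNL array. Without KNL replicate 2, 4 members were called higher (2.04%), against 1.37% of all probes, and the median change of the members was 0.68. Of the 12 largest called rises described below, Olfr67, Olfr632 and V1rc20 stayed called, together with the bitter receptor Tas2r119, and the other 9 had adjusted p-values of 0.0117 to 0.0721. Without KNL replicate 1 the median change of the members was 1.11, and without WNL replicate 2 it was 0.87. In both settings fewer members, and fewer of all probes, were called higher. Olfr67 lost its call there, and the only called fall, that of Vmn2r-ps14, was lost there too. Of the named members that rose, Olfr632, V1rc20 and Tas2r119 were called whichever single array was left out. Leaving out either KTL array, which enters this comparison only through the estimate of spread, also lowered the number of members called higher. The number over all probes fell too.

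Other dim probes rose less. All probes with values were split by mean log2 intensity over the 8 arrays into 10 classes of equal size, and 162 members (82.7%) fell into the 5 dimmest classes. In the dimmest class the median change in KNL vs WNL was 0.69 for 34 members and 0.18 for the other probes. In the third it was 0.88 for 33 members against 0.24, in the fifth 1.10 for 27 against 0.17, and in the seventh 1.06 for 10 against 0.12. The members' medians lay above those of other probes in each of the 10 classes, and the gap was wider in the fifth and the seventh class than in the dimmest. The dimmest class spans mean intensities of 100 to 129. There the floor of 100 limits the changes of members and other probes, so its gap is not comparable with the others. The shares called higher were 24.2% of members and 7.69% of other probes in the third class, and 25.9% and 9.93% in the fifth. Set against the median of other probes in its own class, a member changed by a median of 0.65 more, and 187 of 196 lay above that median. The median over all probes of a class, members included, was also subtracted from each change before the 2-fold threshold was applied. With it 24 members were called higher (12.2%), against 3.40% of all probes. The adjusted p remained that of the change before subtraction, so it does not test the excess over the class. This subtraction was made on the changes only, and the intensity classes were set by the same arrays.

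**Figure D2:**
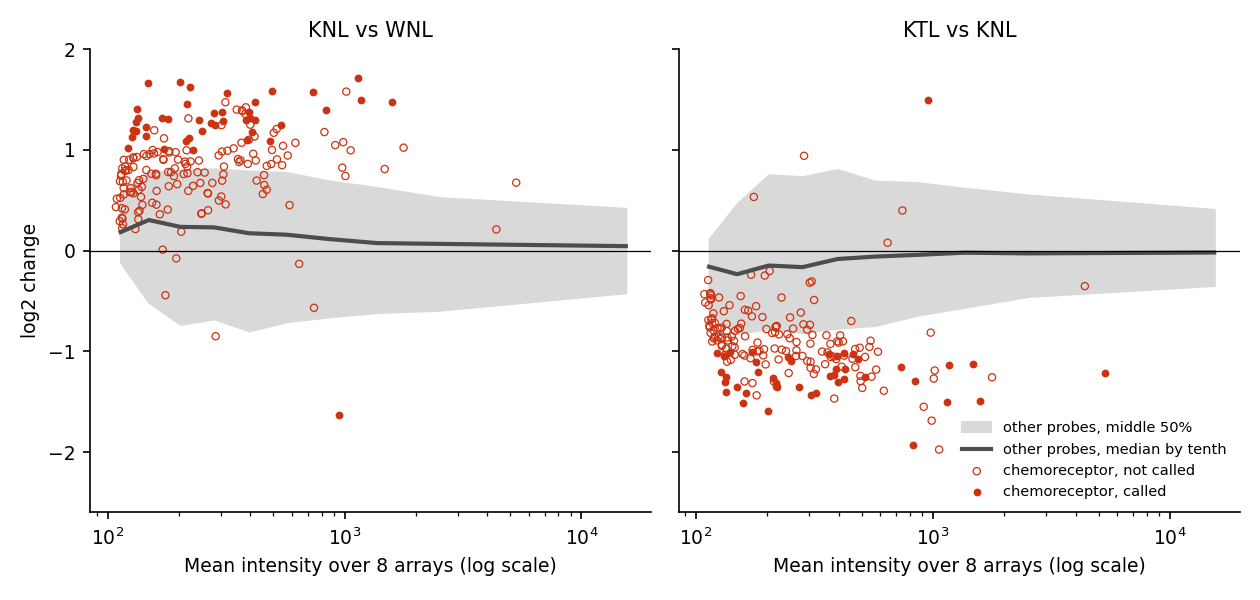
The log2 change of each chemoreceptor probe (red, filled where called) against its mean intensity over 8 arrays (log scale), in KNL vs WNL and KTL vs KNL, with the median (line) and the middle 50% (grey) of all other probes in each of 10 intensity classes. Members lay mostly above the line in KNL vs WNL (187 of 196) and below it in KTL vs KNL (191 of 196). Only 3 members lay in the 2 brightest classes.

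The families had like medians, apart from the 2 V2R probes. Class was taken from the MOR family numbers among the RefSeq synonyms, which run up to 42 for class I and from 103 for class II among these genes, and 4 olfactory probes had no such number. Over all probes 6.93% were called higher and 13.5% lower. Of 38 class I probes 10 rose (26.3%), with a median change of 0.89, and of 134 class II probes 26 rose (19.4%), with a median of 0.85. Of 12 V1R probes 3 rose, with a median of 0.94, and of 5 T2R probes 2 rose, with a median of 1.18. The only called fall was 1 of the 2 V2R probes. No difference between families was tested, and the class medians differed by less than the spread within either class, whose quartiles were 0.72 and 1.10 in class I and 0.59 and 1.13 in class II.

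**Figure D3:**
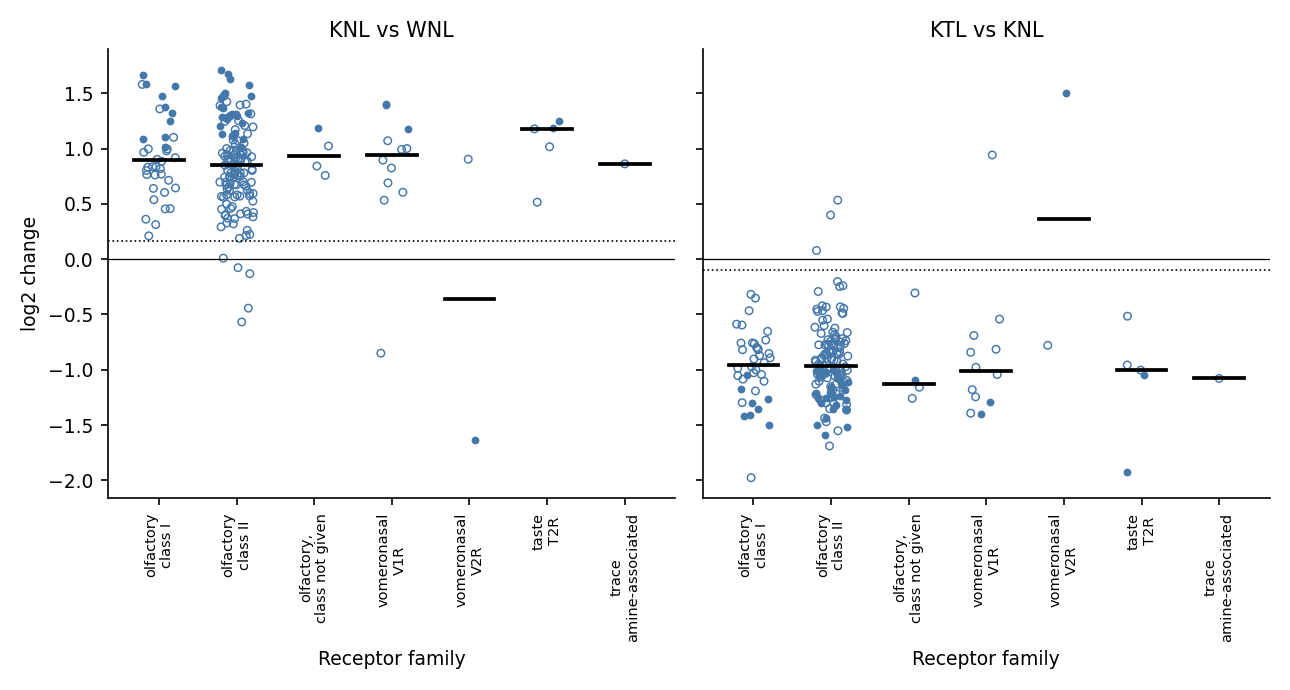
The log2 change of each chemoreceptor probe by receptor family in KNL vs WNL (left) and KTL vs KNL (right), filled where called, with the family's median (thick line) and the median of all probes with values (dotted line). Class I and class II olfactory receptors had medians of 0.89 and 0.85 in KNL vs WNL, and the called V2R point below 0 is Vmn2r-ps14.

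The largest rise of a member in the naive knockout was that of Olfr1009, a class II receptor, which read 774 and 668 in WNL, 1129 and 1277 in WTL, 2427 and 2291 in KNL and 1011 and 688 in KTL. Both KNL arrays lay above all others, and WTL lay between KNL and the remaining groups. The change was 1.71 (SE 0.20, adjusted p = 0.000943). Its neighbors Olfr1006 and Olfr1008, which stand 3 places and 1 place away in the RefSeq gene order of GRCm38.p6, were among the 12 largest called rises as well. Olfr1006 read 437 and 537 in WNL, 567 and 732 in WTL, 1326 and 1568 in KNL and 649 and 645 in KTL, without overlap between KNL and the other groups, and changed by 1.57 (SE 0.17, adjusted p = 0.000826). Olfr1008 read 959 and 643 in WNL, 1066 and 1056 in WTL, 2486 and 1980.2 in KNL and 1086 and 936 in KTL and changed by 1.50 (SE 0.21, adjusted p = 0.00193). Olfr1009 and Olfr1008 were also bright for olfactory receptors, each in the eighth of the 10 intensity classes.

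Among class I receptors, Olfr67 rose from the floor. It was at 100 on both WNL arrays, 110.0 and 137 on the WTL arrays, 262 and 383 on the KNL arrays and 134 and 115 on the KTL arrays, which makes it at least 3.17-fold higher in KNL (adjusted p = 0.00123). Olfr632 read 223 and 231 in WNL, 237 and 312 in WTL, 671 and 675 in KNL and 270.4 and 237 in KTL, with the KNL arrays close together and apart from the rest, and changed by 1.57 (SE 0.15, adjusted p = 0.000544). Olfr657 (466 and 258 in WNL, 891 and 1213 in KNL) changed by 1.59, and its WNL arrays differed from each other. Olfr669, the brightest of this group, read 1097 and 1194 in WNL, 1345 and 1692 in WTL, 2759 and 3678 in KNL and 1309 and 975 in KTL and changed by 1.48 (SE 0.21, adjusted p = 0.00198).

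The other large rises were of class II and of a vomeronasal receptor. Olfr736 read 186 and 100 in WNL, 171 and 222 in WTL, 396 and 478 in KNL and 145 and 143 in KTL, with 1 WNL array at the floor, and changed by 1.67 (SE 0.29, adjusted p = 0.00396). Olfr1153 read 210.2 and 100 in WNL, against 384 and 519.7 in KNL and changed by 1.62 (adjusted p = 0.00796). Both had WNL arrays that differed from each other nearly as much as, or more than, a call would need. Olfr697 read 370.3 and 217 in WNL, against 732 and 850.4 in KNL and changed by 1.48. Olfr933 read 157 and 161 in WNL, against 389 and 490.5 in KNL and changed by 1.46, and its WNL arrays were close together. V1rc20, a V1R receptor, was at the floor on both WNL and both KTL arrays and read 109 and 130.1 in WTL and 228 and 306 in KNL, which makes it at least 2.64-fold higher in KNL than in WNL. Of the 42 rises 5 started from the floor on both WNL arrays, and the bounds of Olfr1113, Olfr446 and Olfr458 were at least 2.19-fold, 2.3-fold and 2.02-fold.

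**Figure D4:**
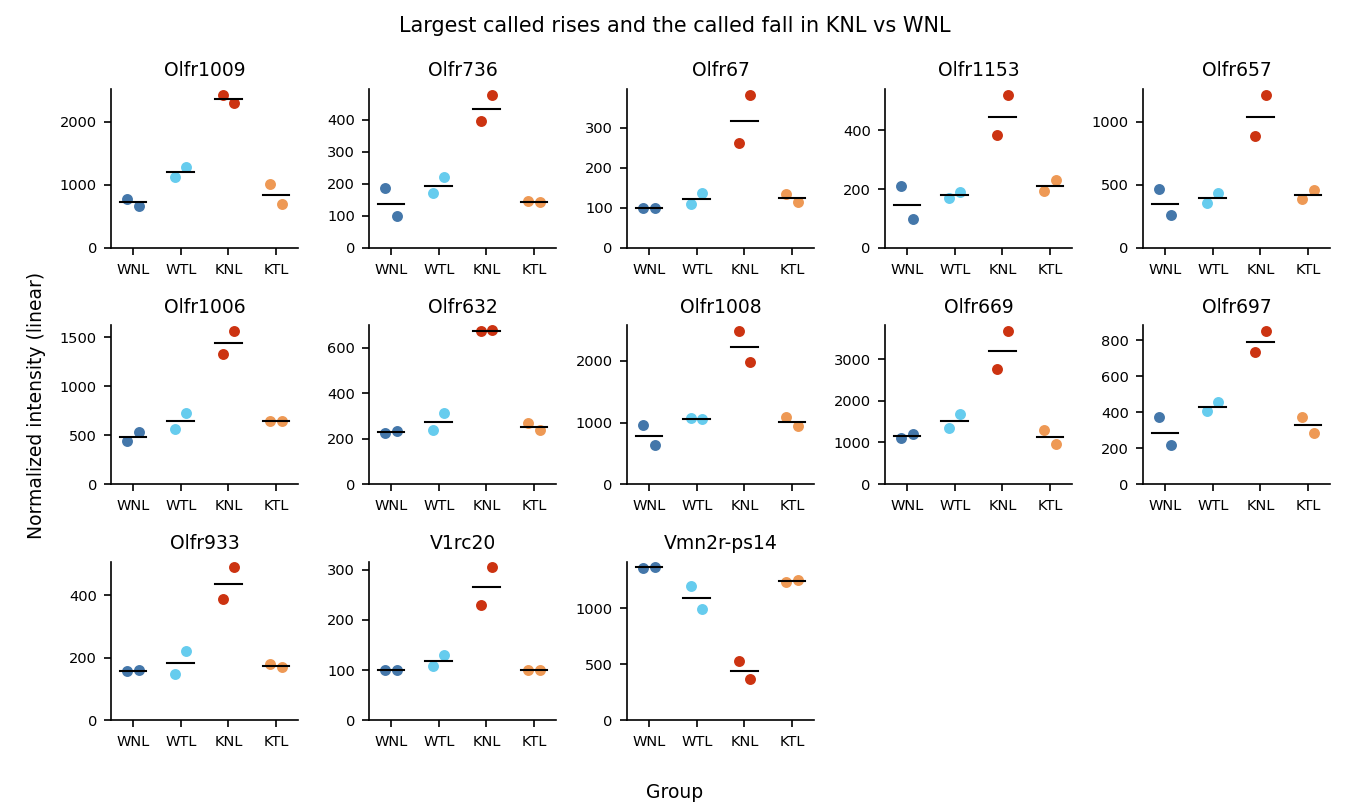
Normalized intensity (linear scale, from 0) of the 12 members with the largest called rises and of the only called fall in KNL vs WNL, 1 point per array with replicate 1 on the left, and the geometric mean of each group (line). In the 12 rises both KNL points lie above all 6 others, from 228 and 306 for V1rc20 to 2759 and 3678 for Olfr669, and Vmn2r-ps14 shows the opposite order.

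The only called fall was that of Vmn2r-ps14, annotated in RefSeq as a pseudogene under the name Gm21978. It read 1362 and 1368 in WNL, 1201 and 990.3 in WTL, 529 and 367 in KNL and 1235 and 1253 in KTL, so that both KNL arrays lay below all others, and changed by -1.63 (SE 0.19, adjusted p = 0.000986). A pseudogene of this kind encodes no working receptor. Of the other members 5 had a change below 0, of which Olfr259 (-0.57, adjusted p = 0.00479) and the dimmer probe of V1rd4 (-0.85, adjusted p = 0.00517) changed by less than 2-fold, and Olfr1047, Olfr116 and Olfr1347 had adjusted p-values of 0.107 to 0.805.

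Olfactory receptor genes lie in clusters, and the rises were spread over them. Receptor genes with at most 10 other genes between them were joined in RefSeq order, which placed the 176 olfactory probes in 37 clusters. In the largest, which runs from Olfr992 to Olfr1272 among the members, 10 of 34 probes rose, with a median change of 0.90. In the class I cluster from Olfr544 to Olfr644, 6 of 28 rose, with a median of 0.82, and in the adjacent class I cluster from Olfr654 to Olfr690, 4 of 10, with 0.94. The cluster from Olfr875 to Olfr986 gave 3 of 14 and that from Olfr693 to Olfr17 gave 2 of 9, while in the cluster from Olfr95 to Olfr136 1 of 9 rose, with a median of 0.74. In all, 15 of the 37 clusters held a called rise, but many clusters held only 1 probe, so this count depends on the number of probes per cluster. Over all members 21.4% were called higher, against 6.93% of all probes. The 6 clusters with 8 or more probes had medians between 0.74 and 1.05, and no difference between clusters was tested.

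None of the 3 members with the highest signal rose past the thresholds in KNL vs WNL, but the next brightest, Olfr669, did (change 1.48, adjusted p = 0.00198). In the eighth intensity class, which holds Olfr669, 3 of 5 members were called higher (60.0%), against 6.53% of other probes. Olfr275 read 5550.1 and 4536 in WNL, 5674 and 5742 in WTL, 7049.5 and 9101 in KNL and 3352 and 3555 in KTL, and its change in KNL vs WNL was 0.67 (SE 0.16, adjusted p = 0.012). Olfr544, known as a receptor for azelaic acid that is also transcribed outside the nose, read 4580.2 and 4322 in WNL, 3609 and 4360.0 in WTL, 5123 and 5176 in KNL and 4224 and 3853 in KTL and changed by 0.21 (SE 0.13, adjusted p = 0.183), with all groups close together. Olfr1245 read 2121 and 1052 in WNL, 1431 and 2084 in WTL, 2214 and 4159.9 in KNL and 1209.7 and 1331 in KTL, where the KNL arrays differed from each other, and its change of 1.02 did not pass (adjusted p = 0.0726). Signals of different probes depend on the probe as well as on the transcript. At the other end, Olfr168, Tas2r136 and Olfr1428 were at or near the floor on most arrays and did not exceed 171 on any array, with adjusted p-values of 0.0118 to 0.313. Of 6 measured members of a list of well-studied olfactory receptors, Olfr690 rose (414 and 217 in WNL, against 757 and 741 in KNL, change 1.32, adjusted p = 0.00828). Olfr1507, a model gene for receptor choice, read 221 and 140.4 in WNL, against 300.5 and 353 in KNL (adjusted p = 0.0126) and did not pass. Olfr17, a receptor used to trace the axons of olfactory neurons, read 146 and 323 in WNL, against 828 and 396 in KNL (adjusted p = 0.0473), so that the arrays of both groups differed from each other by more than 2-fold. Olfr73, a eugenol receptor, changed by 0.56 and Olfr2, an octanal receptor, by 0.48, with adjusted p-values of 0.118 and 0.343.

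Of the V1R receptors, V1rd11 (Vmn1r64) and V1rh13 (Vmn1r219) rose beside V1rc20. V1rd11 read 631 and 536 in WNL, 802 and 964 in WTL, 1288 and 1823 in KNL and 639 and 613 in KTL and changed by 1.40 (SE 0.19, adjusted p = 0.00176). V1rh13 read 337 and 263 in WNL, 349.6 and 374 in WTL, 662 and 682 in KNL and 393 and 358 in KTL and changed by 1.17 (SE 0.14, adjusted p = 0.00114). The other V1R probes did not pass. V1rc17 (Vmn1r26) was at the floor on all arrays but the KNL arrays, where it read 153 and 170.3, at least 1.61-fold above WNL. V1re1, V1rd17 and V1rd10 read highest on KNL replicate 2, at 1553, 801 and 1292 against 671, 364 and 561 on KNL replicate 1, and so were more than 2-fold apart in each, with adjusted p-values of 0.0576 to 0.0667. V1ra6, V1rg11 and V1rf2 changed by 0.60, 0.90 and 0.53, with adjusted p-values of 0.0216 to 0.0381. The V2R receptor Vmn2r60 read 164 and 162 in WNL, against 298 and 312 in KNL, a change of 0.90 (SE 0.13, adjusted p = 0.00217) that fell short of 2-fold.

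Probes of 1 gene did not always have the same order of groups. The 2 probes of V1rd4 (Vmn1r58) read in opposite order in KNL vs WNL, the dimmer going from 317 and 359.7 to 208 and 169 and the brighter from 927 and 835 to 1303 and 1863. The changes were -0.85 (SE 0.16, adjusted p = 0.00517) and 0.82 (SE 0.25, adjusted p = 0.028), and neither was called. Both probes of Olfr152 read higher in KNL, the dimmer going from 265 and 209 to 473 and 696, a called rise of 1.28, and the brighter from 1331 and 1351 to 1895 and 2919, a change of 0.81 that was not called (adjusted p = 0.0149).

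Among bitter taste receptors, Tas2r119 and Tas2r116 rose. Tas2r119 read 102 and 100 in WNL, 117 and 116 in WTL, 222 and 236 in KNL and 109 and 113 in KTL and had the smallest adjusted p of any member, with a change of 1.19 (SE 0.09, adjusted p = 0.00029). Tas2r116 read 331 and 463 in WNL, 458 and 509 in WTL, 842 and 1032 in KNL and 494 and 467 in KTL and changed by 1.25 (SE 0.19, adjusted p = 0.0023). Tas2r131 read 543 and 916 in WNL, against 1389.5 and 1833 in KNL and Tas2r109 409 and 191 in WNL, against 459 and 697 in KNL. In both the WNL arrays differed from each other, and neither passed (adjusted p = 0.0311 and 0.0508). Taar1, a receptor for trace amines that is known in the brain, read 485 and 249.7 in WNL, 311 and 401 in WTL, 518 and 772 in KNL and 275 and 326 in KTL, and its change of 0.86 (SE 0.35, adjusted p = 0.069) did not pass.

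The comparison of KTL with KNL addresses the effect of training in the knockout. It shares the KNL arrays with the comparison above, so a high KNL value gives a rise in one and a fall in the other, and the values are given side by side without a test of likeness. In KTL vs KNL 42 members fell (21.4%, against 7.5% of all probes) and 1 rose (0.51%, against 12.6%). The median change was -0.98 over the members and -0.09 over all probes. The largest called fall was that of Tas2r131, which read 1389.5 and 1833 in KNL and 532 and 331 in KTL, a change of -1.93 (SE 0.37, adjusted p = 0.00576). Olfr736, Olfr1009 and Olfr669 fell by 1.59, 1.50 and 1.50 and had risen by 1.67, 1.71 and 1.48 in KNL vs WNL. Olfr281 read 236 and 346 in KNL and was at the floor on both KTL arrays, at least 2.86-fold lower in KTL (adjusted p = 0.00822). The dimmer probe of Olfr152 fell by 1.43. Olfr275, the brightest member, fell from 7049.5 and 9101 to 3352 and 3555, a change of -1.21 (SE 0.16, adjusted p = 0.00171), and both KTL arrays lay below all 6 others. Vmn2r-ps14 was the only called rise, by 1.50.

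Without KNL replicate 2, 3 members were called lower in KTL vs KNL (1.53%, against 0.687% of all probes), with a median change of -0.75. Without KTL replicate 2 and without KTL replicate 1 the medians were -0.93 and -0.98. In both settings fewer members, and fewer of all probes, were called lower. The only called rise was lost without either KTL array. Every fall named above except that of Olfr275, for which single arrays were not left out in this comparison, lost its call without KNL replicate 2. Against the median of other probes in its own intensity class, 191 of 196 members lay lower in this comparison, by a median difference of -0.82.

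Training in wild-type mice changed no member past the thresholds. In WTL vs WNL 0 of 196 members and 0.0% of all probes were called by limma, and the smallest adjusted p of a member was 0.181. By limma 11 members had an unadjusted p under 0.05 (5.61%, against 15.1% of all probes). SAM called 0 members but also 0 of all 16588 probes, so its count tells nothing particular to the members. The members' median was 0.17, against 0.01 over all probes, and 153 of 196 lay above 0. The shift depended on WTL replicate 2. Both WTL arrays lay above both WNL arrays for 44 members (22.4%), against 20.4% of all probes, and without WTL replicate 2 the median change was 0, whereas it was 0.34 without WTL replicate 1.

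Between trained groups and against naive wild type, the knockout showed no called member either. In KTL vs WTL 0 members were called, against 0.0241% of all probes, and the median was -0.24. By limma 12 members (6.12%) had an unadjusted p under 0.05, against 17.5% of all probes. Both KTL arrays lay below both WTL arrays for 83 members (42.3%), against 23.9% of all probes, and without WTL replicate 2 the median was -0.09. In KTL vs WNL 0 members were called, against 0.0422% of all probes, and the median was -0.03, with 87 of 196 above 0. By limma 2 members (1.02%) had an unadjusted p under 0.05, against 11.5% of all probes. In KTL vs WTL and in KTL vs WNL, SAM called 0 members and also 0 of all probes. A count of 0 does not show that levels were equal at 2 arrays per group.

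The effect of training differed between genotypes for 34 members, 17.3%, a smaller share than the 21.8% of all probes, but mostly in 1 direction. In the interaction, the change from KNL to KTL minus that from WNL to WTL, 32 members were called below 0 (16.3%, against 8.46% of all probes) and 2 above 0 (1.02%, against 13.3%). The largest were Olfr1009 at -2.24 (SE 0.28, adjusted p = 0.00222), Olfr736 at -2.11 (SE 0.42, adjusted p = 0.0082) and Olfr669 at -1.89, followed by V1rd11 at -1.89 and Olfr697 at -1.88. Those above 0 were Vmn2r-ps14 at 1.82 (SE 0.27, adjusted p = 0.00356) and the dimmer probe of V1rd4 at 1.15 (SE 0.23, adjusted p = 0.00822). The interaction uses all 4 groups and so carries the level of the KNL arrays as well, and the count fell with most single arrays left out, as did that over all probes. Without KNL replicate 2, 2 members were called (1.02%, against 4.11% of all probes), and without KNL replicate 1, 17 (8.67%, against 10.9%). Without KTL replicate 1 or 2, 1 and 0 members were called, against 3% and 1.45% of all probes. Without WNL replicate 1 or 2, 18 (9.18%) and 5 (2.55%) were called, against 12% and 5.51%, and without WTL replicate 2, 9 (4.59%), against 11.2%. The members' share lay below that of all probes in each of these.

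Of the genes that act with these receptors many had no value, and the calls of the others went both ways. Of 11 markers of mature olfactory sensory neurons 3 were measured, Adcy3, Gng13 and Gnal, and Omp, Cnga2, Ano2, Rtp1 and Stoml3 had no value. The summed intensity of the 3 ran from 2889 to 3038 in WNL and from 3016 to 3360.1 in KNL, where the groups overlapped. Adcy3, the cyclase of olfactory transduction, read 1011 and 1000.2 in WNL, 1392 and 1407 in WTL, 1870.2 and 1728 in KNL and 1090.0 and 1049.5 in KTL and changed by 0.84 (SE 0.10, adjusted p = 0.000979), less than 2-fold, while Gnal, its G protein subunit, changed by -0.45 (SE 0.10, adjusted p = 0.0104). Both genes are also active in brain. Of 11 measured genes of olfactory transduction 1 rose in KNL vs WNL, Gnb1 by 1.01, and 2 fell, Slc12a2, a chloride cotransporter, by 1.58 and Arrb2, an arrestin that desensitizes receptors, by 1.10. These counts lie near the shares over all probes, where 6.93% were called higher and 13.5% lower. Of 9 genes of vomeronasal transduction 6 were measured, with a median change of -0.03 in KNL vs WNL, and 1, Plcb2, rose. Plcb2 is counted again among the taste genes below. Of 4 markers of vomeronasal neurons 2 were measured, Gnao1 (change -0.73, adjusted p = 0.0102) and Gnai2 (-0.49, adjusted p = 0.0265), and neither passed. Trpc2, the channel of these neurons, had no value.

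Among 12 measured genes of receptor choice 1 rose and 2 fell in KNL vs WNL, again near the shares of 6.93% and 13.5% over all probes. Lhx2, a homeodomain factor needed for olfactory receptor transcription and also active in hippocampus, read 6003 and 4794 in WNL, 5761 and 6346 in WTL, 8191 and 10249 in KNL and 5237 and 4547 in KTL, a change of 0.77 (SE 0.17, adjusted p = 0.00917), less than 2-fold. Ehmt1, a histone methyltransferase of repressed chromatin, rose by 1.02 (SE 0.19, adjusted p = 0.00492) on the brightest of its 3 probes. Its other probes were not read. Emx2, another homeodomain factor, fell by 1.22 and Eif2ak3, the kinase of the unfolded protein response, by 1.58. Lbr, whose loss is needed for the nuclear aggregates of receptor genes in olfactory neurons, read 201 and 179 in WNL and was at the floor on both KNL arrays, which makes it at least 1.9-fold lower there (adjusted p = 0.00329). Whether the fall exceeded 2-fold cannot be read from values at the floor.

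Of 8 measured genes of taste transduction 3 rose and 0 fell in KNL vs WNL, beside 6.93% and 13.5% of all probes. Plcb2, the phospholipase of taste cells, read 1743 and 1498 in WNL, 1427 and 1776 in WTL, 3232 and 3492 in KNL and 1702 and 1202 in KTL and changed by 1.06 (SE 0.20, adjusted p = 0.00522). Gnat1, the rod transducin subunit, rose by 1.33 and Scnn1a, a subunit of the epithelial sodium channel, by 1.26. Trpm5, the cation channel of taste cells, read 138 and 169 in WNL, 322 and 402 in KNL and 166 and 107 in KTL. It did not pass in KNL vs WNL (adjusted p = 0.0154) and fell in KTL vs KNL by 1.43 (adjusted p = 0.00949). Of 8 taste cell markers 3 were measured, Plcb2, Trpm5 and Pou2f3. Their summed intensity was 2071 and 1823 in WNL and 3835 and 4352 in KNL, and most of it is Plcb2, already given above. Pou2f3, like Trpm5, did not pass in KNL vs WNL (adjusted p = 0.0193). Gnat3, the defining G protein subunit, had no value. The part of marker genes of other cells in the rise of the receptors was not tested.

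Other gene families better known from skin and liver are set beside the receptors. Among 31 probes of keratins and of cornified envelope proteins of skin, 9 (29.0%) were called higher and 0 lower in KNL vs WNL, with a median change of 0.85, and among 37 cytochrome P450 probes 9 (24.3%) were higher and 2 (5.41%) lower, with 0.69, beside 0.88 over the 196 chemoreceptor probes. Over all probes 6.93% were called higher and 13.5% lower. In KTL vs KNL the medians were -0.84, -0.83 and -0.98, and in WTL vs WNL 0.30, 0.16 and 0.17. These are descriptions of 3 gene families, without a test of a difference between them.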

How the data were processed

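The 8 arrays of the left hippocampus (Mouse Whole Genome OneArray, Cy5) were analysed. The deposited values are intensities on a linear scale, which the authors scanned, averaged over technical replicates and normalized. The authors' methods give a floor of 100 and quantile normalization. Both were applied again here, since lower values were present, and log2 was taken. Of 29922 probes 13334 were blank on all arrays. The number of arrays limits the precision.

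A linear model with a mean for each of the 4 groups (4 residual degrees of freedom) was fitted to all 16588 probes in limma (version 3.58.1, R 4.3.3), in place of the methods' Significance Analysis of Microarrays (SAM), which was run as an alternative. A group level is the geometric mean of 2 arrays, and a change is on the log2 scale with the standard error (SE) of limma. Members, lists and tests were chosen with earlier results of these data known. Named genes are the largest called changes in each comparison, the brightest and dimmest members, all vomeronasal, taste and trace amine-associated receptors, fixed lists of receptors and transduction genes, and genes with 2 probes. Olfr1113, Olfr446 and Olfr458, members near the threshold or below 0, the keratins and the cytochromes were chosen after their values were seen. Of each gene on a fixed list, only the brightest probe was read. RefSeq (GRCm38.p6) gave current names, synonyms, gene order and start windows. 180 member genes matched by symbol and 14 by synonym. Alternatives changed the floor, normalization, filter, prior, test, thresholds and arrays.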

Additional observations from a re-analysis of the deposited data

Results flagged for a closer look

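The change with training differed between knockout and wild-type mice, by the interaction term of limma at an adjusted p under 0.01 and over 2-fold, for 34 chemoreceptor probes (17.3%), a smaller share than the 21.8% of all probes. Named members below 0 on the log2 scale were Olfr1009 at -2.24, Olfr736 at -2.11, Olfr669 at -1.89, V1rd11 at -1.89, Olfr697 at -1.88, the dimmer probe of Olfr152 at -1.81 and Olfr632 at -1.67. Further such members were V1rc20 at -1.65, Olfr67 at -1.65, Olfr1008 at -1.57, Olfr1006 at -1.57, Olfr933 at -1.51, Olfr275 at -1.40, Tas2r119 at -1.26 and V1rh13 at -1.12. Olfr67 was at the floor on both WNL arrays, and V1rc20 on both WNL and both KTL arrays, so that their interactions lay at least this far below 0. Above 0 were Vmn2r-ps14 at 1.82 and the dimmer probe of V1rd4 at 1.15.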

How the results depend on the processing

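Counts of called members moved with the settings, while no value under any alternative changed sign past a threshold. In brackets stands the share of members called, then that of all probes. A floor of 200 gave 16 rises in KNL vs WNL (8.16%, 2.79%), 12 falls in KTL vs KNL (6.12%, 2.42%) and 5 calls in the interaction (2.55%, 8.1%). Fits of the compared groups alone, with fewer residual degrees of freedom, gave 14 rises (7.14%, 2.73%) and 0 falls (0.0%, 10.5%) in KNL vs WNL and 0 rises (0.0%, 10.3%) and 17 falls (8.67%, 4.84%) in KTL vs KNL. SAM gave 66 rises in KNL vs WNL (33.7%, 10.2%) and 91 falls in KTL vs KNL (46.4%, 11.6%). Without the fold threshold there were 66 rises (33.7%, 18.7%) and 3 falls (1.53%, 19.1%) in KNL vs WNL and 2 rises (1.02%, 18.8%) and 67 falls (34.2%, 16.8%) in KTL vs KNL. At an adjusted p under 0.05 there were 81 falls in KTL vs KNL (41.3%, 11.1%) and 89 calls in the interaction (45.4%, 33.2%). With each intensity class's median subtracted for the fold threshold only, 24 rises (12.2%, 3.4%) and 2 falls (1.02%, 15.7%) were called in KNL vs WNL. The same setting gave 2 rises in KTL vs KNL (1.02%, 14.1%), and cyclic loess gave 2 rises there (1.02%, 14.2%). Leaving out single arrays gave 4 to 37 rises and 0 to 1 falls in KNL vs WNL, 0 to 1 rises and 2 to 38 falls in KTL vs KNL, and 0 to 28 calls in the interaction. Leaving out KNL replicate 2 and WTL replicate 2 together, a setting chosen after seeing the data, gave 0 calls in each of these comparisons, and also 0 over all 16588 probes, with 2 fewer residual degrees of freedom. The causes of these differences between settings were not tested. WTL vs WNL, KTL vs WTL and KTL vs WNL gave 0 called members in every setting. Over the genes named, 1076 values kept their side of the threshold, 199 lost a call and 18 gained one.

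Arrays of different groups share only a replicate number. Deviations of same-numbered arrays from their group means correlated at -0.25 to 0.43, and with the replicate block 36 members rose in KNL vs WNL (18.4%, 5.88%), 29 fell in KTL vs KNL (14.8%, 6.16%) and 22 were called in the interaction (11.2%, 14.8%).

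With 2 arrays per group, dim members near the floor have understated changes, and the members were chosen by the presence of values on all 8 arrays.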
